A study of Mus musculus with 2 samples.

Results

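MHC class I molecules display peptides from the cell's own proteins at its surface, and the 8 genes described here encode their chains and the machinery that makes and loads the peptides. The genes were chosen by name, not by their values: B2m, H2-K1 and H2-D1 for the class I complex, Tap1, Tap2 and Tapbp for peptide transport and loading, and Psmb8 and Psmb9 for the immunoproteasome. All 8 were among the 14366 genes measured in both libraries. Their levels were compared between stem-like and committed cells, against Ly6a, and between the vehicle and deferoxamine cultures.

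The cells were hematopoietic stem cells (HSC), sorted from bone marrow pooled from 8 wildtype C57/B6 mice aged 6 to 8 weeks by the gate Lin-, Sca-1+, c-Kit+, CD150+, CD48-. Both cultures received stem cell factor at 100 ng/ml, thrombopoietin at 50 ng/ml and Primocin at 200 µg/ml, and lasted 48 h. Deferoxamine (DFO), an iron chelator, was added to one culture at 10 µM, and water, the vehicle, to the other. About 20000 cells of each entered droplet-based 3′ single-cell RNA sequencing with unique molecular identifiers (UMIs), so the series has 1 library per group, made from pooled animals, and no difference below has a replicate check or a p-value.

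A class I molecule is a heavy chain, encoded in these mice by H2-K1 and H2-D1 among others, bound to beta-2 microglobulin, the product of B2m. Peptides are cut by the proteasome, carried into the endoplasmic reticulum by the transporter that Tap1 and Tap2 encode, and fitted to the heavy chain with the help of tapasin, the product of Tapbp. Psmb8 and Psmb9 encode catalytic subunits that take the place of the constitutive subunits Psmb5 and Psmb6 in the immunoproteasome. Interferons raise the transcription of these genes in many cell types, through factors that include Irf1 and Nlrc5. Ly6a encodes Sca-1, a surface marker of mouse stem and progenitor cells that is itself inducible by interferons and that was one of the sort markers here.

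In the mouse assembly GRCm38.p6, B2m lies on chromosome 2 from 122147687 to 122153082, and the other 7 genes lie on chromosome 17. There the order is Tapbp (33919478 to 33929290), H2-K1 (33996012 to 34000619), Psmb9 (34182030 to 34187330), Tap1 (34187556 to 34197225), Psmb8 (34198195 to 34201454), Tap2 (34204479 to 34216321) and H2-D1 (35263094 to 35267497). Psmb9, Tap1, Psmb8 and Tap2 are neighbours, and the starts of Psmb9 and Tap1 are 226 bases apart on opposite strands, so that both genes share most of their upstream sequence. Ly6a lies apart from all of them, on chromosome 15 from 74994877 to 74998031.

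RefSeq promoter windows matched 7 of the 8 genes, all but Tap2. The 250 bases before the start are shown for 4 genes: the class I chains, whose levels were higher in cells with more Ly6a molecules, and Tap1, whose levels were not. Tapbp, which is not shown, was also higher in cells with 6 or more Ly6a molecules than in cells with none. Its log2 differences were 0.57 in vehicle and 0.39 in DFO. The part of the motifs in these levels was not tested. The windows are chr2:122147437-122147686 on the plus strand for B2m, chr17:34000334-34000583 on the minus strand for H2-K1 (the more downstream of 2 listed starts), chr17:35262844-35263093 on the plus strand for H2-D1 and chr17:34187306-34187555 on the plus strand for Tap1, which overlaps the upstream window of Psmb9 by 225 bases. Capitals mark matches to the motifs searched, read 5′ to 3′ along the gene.
B2m: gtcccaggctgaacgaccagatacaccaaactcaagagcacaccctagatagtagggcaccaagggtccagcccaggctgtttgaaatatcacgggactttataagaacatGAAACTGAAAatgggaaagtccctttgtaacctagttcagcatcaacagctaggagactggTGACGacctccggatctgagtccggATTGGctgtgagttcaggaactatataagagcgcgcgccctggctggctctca
H2-K1: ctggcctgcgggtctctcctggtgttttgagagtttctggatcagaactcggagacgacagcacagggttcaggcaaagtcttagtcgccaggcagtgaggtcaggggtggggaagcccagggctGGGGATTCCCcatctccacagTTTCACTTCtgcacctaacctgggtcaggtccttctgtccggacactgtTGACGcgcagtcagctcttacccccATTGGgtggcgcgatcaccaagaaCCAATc
H2-D1: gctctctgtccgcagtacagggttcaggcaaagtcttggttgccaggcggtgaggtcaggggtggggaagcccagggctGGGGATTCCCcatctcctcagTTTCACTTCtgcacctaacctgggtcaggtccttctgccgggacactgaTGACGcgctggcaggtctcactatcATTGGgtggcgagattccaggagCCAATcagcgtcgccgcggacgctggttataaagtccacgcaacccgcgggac
Tap1: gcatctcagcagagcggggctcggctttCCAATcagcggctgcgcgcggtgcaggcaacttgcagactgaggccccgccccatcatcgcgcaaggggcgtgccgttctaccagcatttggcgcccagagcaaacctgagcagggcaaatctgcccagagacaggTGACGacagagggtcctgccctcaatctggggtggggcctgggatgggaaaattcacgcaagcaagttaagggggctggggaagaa

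Motifs were searched on both strands from 250 bases before to 50 bases after the start. H2-K1 and H2-D1 each held the kappa B core (GGGG, ATT and CCC in a row, the first capitals in both), which 0.1075% of 32544 promoter windows of that length hold, followed by TTTCACTTC. That sequence is the reverse of the pattern GAANNGAAA, a short form of the interferon-stimulated response element (ISRE) that was added after the windows were seen and is held by 7.57% of windows. B2m held the full ISRE core (GAAA, any 2 bases, GAAA), as GAAACTGAAA, which 3.45% of windows hold. The TGACG core of the X2 box or cAMP response element, held by 20.9% of windows, was present before the start of B2m, H2-K1, H2-D1 and Tap1, and in reverse for Psmb9 from the sequence it shares with Tap1. In B2m, H2-K1 and H2-D1, ATTGG, the inverted CCAAT box, began 25 bases downstream of it in all 3 windows; ATTGG is a motif that 37.4% of windows hold in either orientation. Psmb8 held TTCCCAGAA, a match to the palindromic GAS core TTCNNNGAA (8.33% of windows), and Tapbp held ATTGG only. A match describes the letters and does not show binding.

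The vehicle library held 8708 cells and 260938938 molecules, and the DFO library 9852 cells and 284326017 molecules, with median depths of 27805.5 and 27114 UMIs per cell. Clusters were made from both libraries together without the 8 genes, related antigen presentation and interferon genes or Ly6a. One cluster, led by Sult1a1, Ctss and Wfdc2 and with Ly6a and Procr among its top 10 genes, was HSC-like and held 18.1% of vehicle and 16.4% of DFO cells. The committed cells were a megakaryocyte-like cluster led by Serpinb2, Cavin2 and Tesc (1712 vehicle and 1359 DFO cells) and a neutrophil-monocyte-like cluster led by Mpo and Ctsg (812 and 1218 cells). Most cells sorted as HSC thus lay outside the HSC-like cluster after culture. The other clusters, numbered 0, 3, 4, 6 and 7, had no clear lineage name. Cluster 6 was shallow, with a median of 6931 UMIs. Cell barcodes found in both libraries numbered 24.

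The heavy chain H2-K1 was somewhat higher and the immunoproteasome subunit Psmb8 somewhat lower in the DFO library, and the other 6 genes were nearly level. Molecules were summed over the cells of a library and scaled to the same library total (CPM); brackets give exact 95% Poisson intervals, which cover counting error only. H2-K1 stood at 1034 CPM (1030 to 1038) in vehicle and 1142 CPM (1138 to 1145) in DFO, a log2 difference of 0.14 after adding 1 CPM to each value. Psmb8 stood at 337 CPM (335 to 340) in vehicle and 309 CPM (306 to 311) in DFO, a log2 difference of -0.13. Both pairs of intervals were apart, as were those of B2m, Tap2, Tapbp and Psmb9, while those of H2-D1 and Tap1 overlapped. The share of all genes with intervals apart was not computed. With 1 library per group the spread between cultures is unknown.

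B2m, the light chain, was at 424 (vehicle) and 418 CPM (DFO), a log2 difference of -0.020, and H2-D1, the second heavy chain, at 352 CPM and 353 CPM, a log2 difference of 0.0027. The transporter gene Tap1 was at 65.4 (vehicle) and 64.3 CPM (DFO), a log2 difference of -0.026. Its partner Tap2 was at 65.4 CPM and 69.3 CPM, a log2 difference of 0.081. Tapbp was at 50.6 CPM and 52.9 CPM (0.063 on the log2 scale), and Psmb9 at 96.0 CPM and 99.2 CPM (0.047).

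None of the 8 genes reached a log2 difference of 0.25 in either direction, a size that 1.4% of 8886 genes passed upward and 2.58% passed downward. The median log2 difference was 0.025 for the 8 genes and 0.019 for all 8886 genes, whose SD was 0.13. Of all genes, 9.27% had a higher difference than H2-K1, and 90.2% a higher difference than Psmb8. Ly6a differed more than any of the 8, from 83.9 CPM (82.8 to 85.0) to 111.2 CPM (109.96 to 112.4), a log2 difference of 0.40 that 11 genes exceeded. Cells called female and cells called male gave H2-K1 differences of 0.17 and 0.12, and Psmb8 differences of -0.10 and -0.16.

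Single cells were compared after thinning each to 10000 molecules; the 4.03% of vehicle and 4.40% of DFO cells below that depth were left out. The 10th, 50th and 90th percentiles of H2-K1 were 5, 10 and 17 molecules per vehicle cell and 6, 11 and 18 molecules per DFO cell. B2m had 2, 4 and 8 molecules at those percentiles in both libraries. Psmb8 had 1, 3 and 6 molecules in both. Molecules of H2-K1 were found in 99.9% of vehicle and 100.0% of DFO cells, and those of B2m in 97.7% and 98.0%. Tap1 was found in 49.7% and 48.4% of thinned cells, Tap2 in 48.3% and 50.1%, and Tapbp in 39.8% and 42.4%, at means below 1 molecule per cell.

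**Figure D1:**
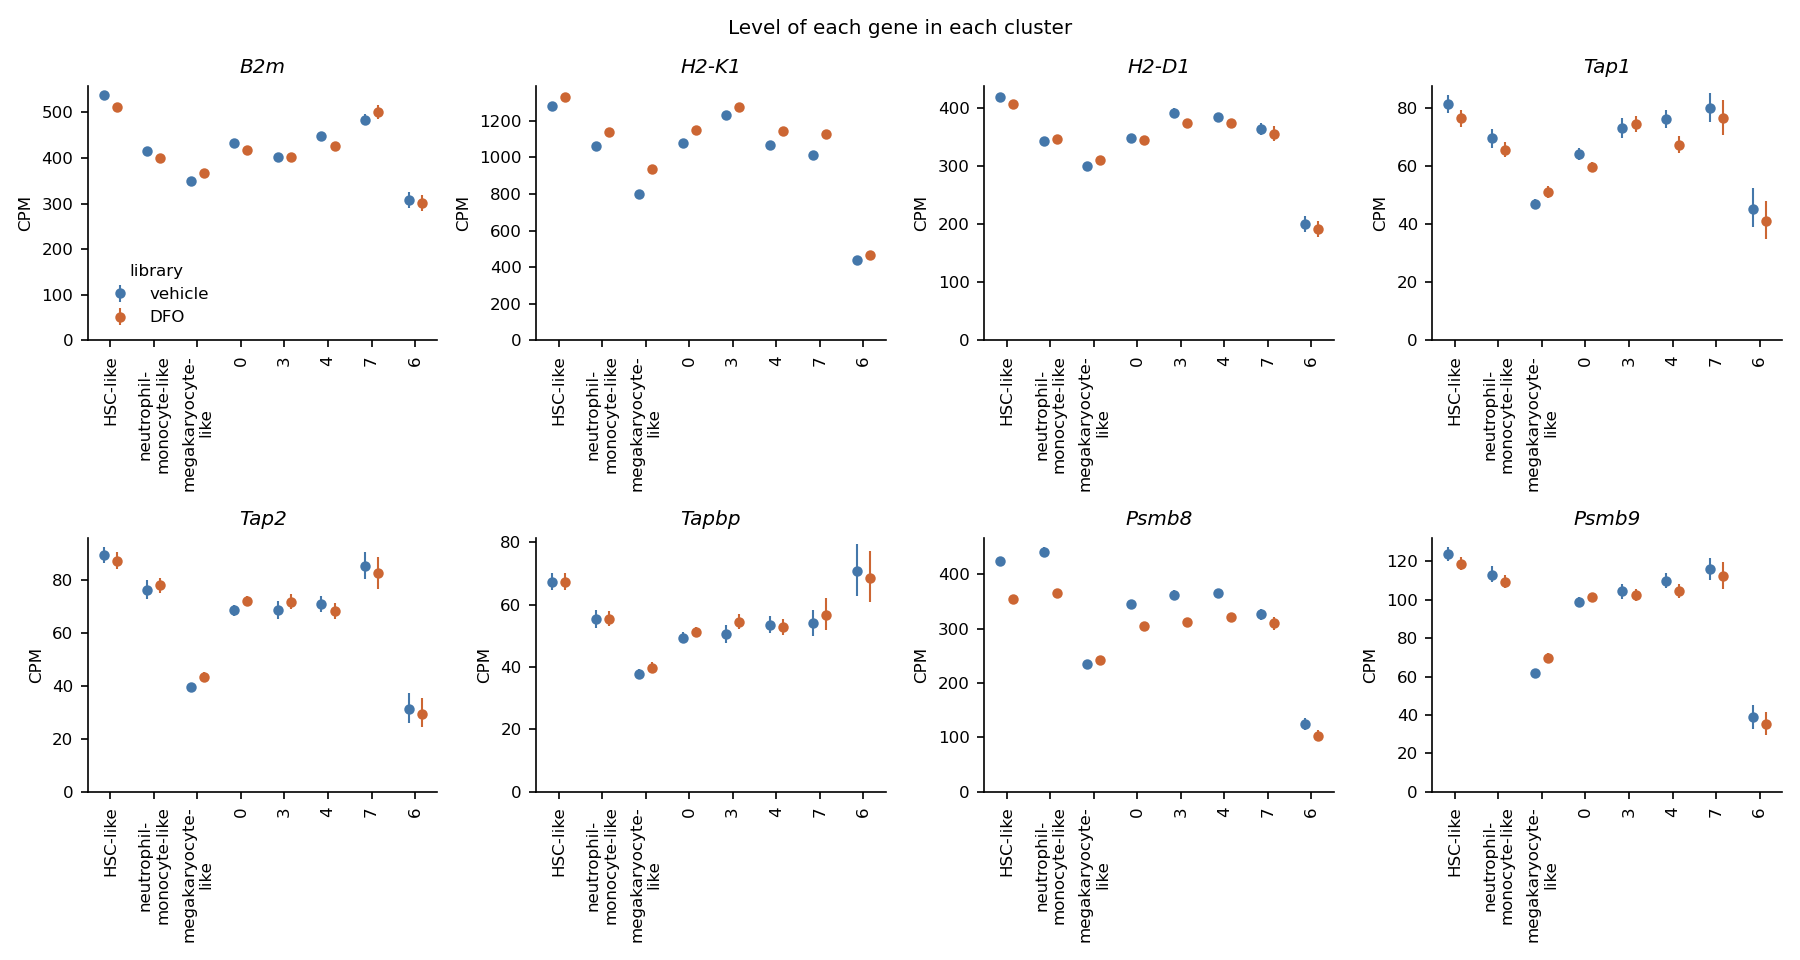
Level of each of the 8 genes in CPM (y axis, from 0) in each cluster (x axis), with vehicle in blue and DFO in orange; points are summed molecules of the cluster's cells and bars exact 95% Poisson intervals. The megakaryocyte-like cluster and the shallow cluster 6 lie lowest for most genes, and H2-K1 runs from 442 CPM in vehicle cluster 6 to 1332 CPM in DFO HSC-like cells.

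All 8 genes were higher in HSC-like than in committed cells in both libraries. In vehicle, 7 of 8 passed a log2 difference of 0.5, where 13.8% of 8956 genes did so upward, and in DFO 2 of 8 did, where 10.9% of 8966 genes did. None of the 8 was lower by 0.5, a size that 8.94% of genes in vehicle and 6.55% in DFO passed downward. The median difference of the 8 genes was 0.58 in vehicle and 0.42 in DFO, against -0.0051 and -0.0028 for all genes. Tap2 had the largest difference in both libraries, 0.83 in vehicle and 0.57 in DFO, followed in vehicle by Psmb9 (0.70), Tapbp (0.65) and Tap1 (0.60). H2-K1, B2m and Psmb8 differed by 0.55, 0.54 and 0.53 in vehicle and by 0.38, 0.43 and 0.26 in DFO. H2-D1 differed least in vehicle, by 0.42, and by 0.31 in DFO.

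The difference was larger against megakaryocyte-like than against neutrophil-monocyte-like cells. Tap2 was at 89.6 CPM (86.6 to 92.8) in HSC-like and 39.6 CPM (38.1 to 41.2) in megakaryocyte-like vehicle cells, a log2 difference of 1.16, and at 87.4 and 43.3 CPM in DFO, a difference of 1.00. Psmb9 was at 123.8 against 61.7 CPM in vehicle (0.99 on the log2 scale) and 118.9 against 69.7 CPM in DFO (0.76). H2-K1 was at 1281 against 800 CPM in vehicle and 1332 against 935 CPM in DFO. B2m was at 537 against 350.4 CPM in vehicle and 513 against 367 CPM in DFO. All 8 genes were lowest in the megakaryocyte-like cells among the named clusters, with intervals that did not overlap those of HSC-like cells. The share of all genes with intervals apart was not computed.

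Against megakaryocyte-like cells the median of the 8 genes was 0.80 in vehicle and 0.56 in DFO, with 7 and 6 of 8 past 0.5, where 16.5% and 14.9% of genes passed upward and 12.1% and 11% downward. Against neutrophil-monocyte-like cells the median was 0.25 and 0.22, and none of the 8 passed 0.5, where 6.63% and 6.67% of genes did upward and 3.47% and 2.7% downward. B2m had the largest difference from neutrophil-monocyte-like cells, 0.37 in vehicle and 0.36 in DFO. Psmb8 was the exception to the direction: at 424 CPM in HSC-like and 442 CPM in neutrophil-monocyte-like vehicle cells, and 355 and 366 CPM in DFO, its log2 differences were -0.057 and -0.041. In DFO the 2 intervals for Psmb8, 349 to 362 and 359.5 to 372 CPM, overlapped.

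**Figure D2:**
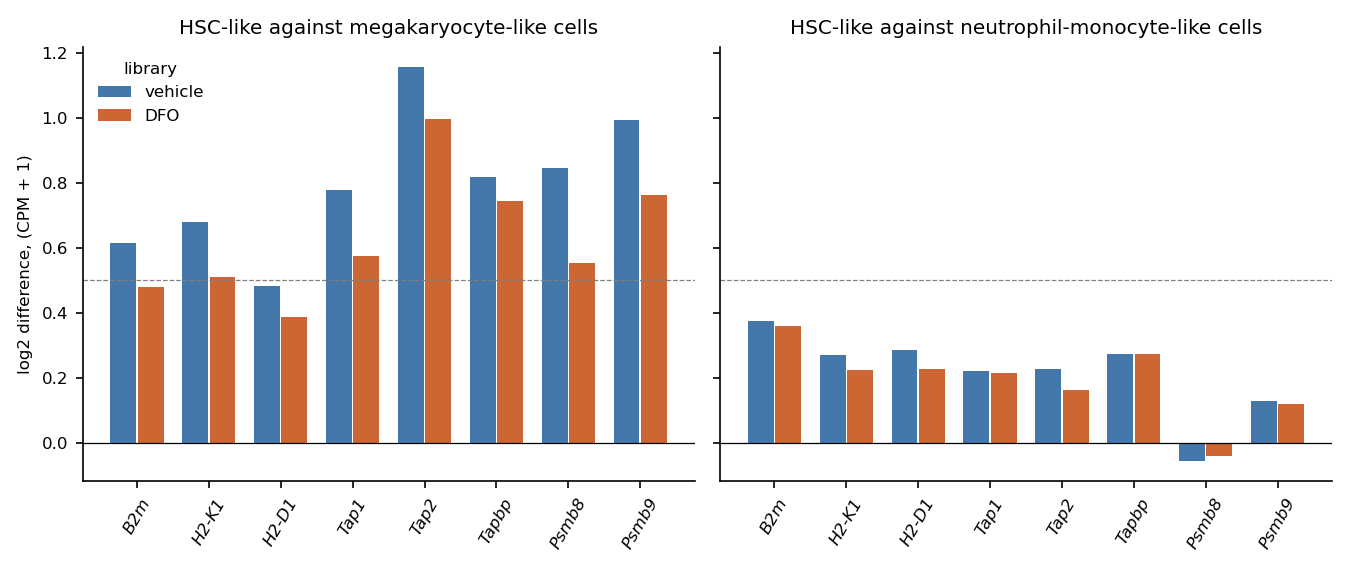
Log2 difference of HSC-like cells from megakaryocyte-like cells (left) and from neutrophil-monocyte-like cells (right) for each gene (x axis), from CPM + 1, with vehicle in blue and DFO in orange; the dashed line marks 0.5. Bars reach 1.16 for Tap2 on the left, while on the right all stay under 0.5 and those of Psmb8 lie just below 0.

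Summed over the 8 genes, HSC-like cells held 3024 CPM in vehicle and 2957 CPM in DFO, neutrophil-monocyte-like cells 2576 and 2560 CPM, and megakaryocyte-like cells 1872 and 2059 CPM. The unnamed clusters 0, 3, 4 and 7 lay between 2488 and 2684 CPM. Cluster 6 had the lowest sum, 1261 CPM in vehicle and 1240 CPM in DFO, although its Tapbp level of 70.7 and 68.7 CPM was the highest of the 8 clusters, with intervals that overlapped those of HSC-like cells. Of these 8 clusters the HSC-like one had both the highest sum and the most Ly6a (234 CPM in vehicle and 288 CPM in DFO). With finer clusters (resolution 1) this was not so: the highest vehicle sum was 3103 CPM, in a cluster led by Tmem121, Ccl9 and Ung with Ly6a at 109.1 CPM. The finer HSC-like cluster led by Dlk1 and Wfdc2, with Ly6a at 477 CPM, had a sum of 2656 CPM.

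The size of the HSC-like difference therefore depends on where the classes are drawn. At resolution 1 the median of the 8 genes was 0.21 in vehicle and 0.13 in DFO, and none of the 8 passed 0.5. Psmb8 then differed by 0.12 in vehicle and by -0.084 in DFO, so that it was lower in HSC-like than in committed DFO cells. HSC-like cells also differed from committed cells in cycle phase, with 31.3% of vehicle and 24.98% of DFO HSC-like cells called G1 against 1.43% and 0.660% of committed cells. Among cells called G1, the median was 0.35 in vehicle and 0.41 in DFO, from 36 and 17 committed cells. Median depth was 21490.5 UMIs in HSC-like, 33757 in megakaryocyte-like and 29819.5 in neutrophil-monocyte-like cells, and with cells thinned to 10000 molecules the medians were 0.55 and 0.40. Of 13 macrophage and dendritic markers, 7 were measured, and their sum was 60.2 CPM in vehicle and 55.4 CPM in DFO HSC-like cells against 44.1 and 37.3 CPM in committed cells. The invariant chain gene Cd74 was at 4.18 and 3.59 CPM in HSC-like cells against 0.521 and 0.586 CPM in committed cells. H2-Ab1, another of these markers, went the other way, at 30.5 and 24.5 CPM against 35.9 and 27.1 CPM. Itgax, which encodes CD11c, was at 0.279 and 0.251 CPM in HSC-like cells. The part of macrophage or dendritic cells in the difference was not tested.

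Immunoproteasome and constitutive subunits moved apart between the clusters. Because capture can differ between genes, each ratio of molecules is compared only across cells. The ratio of Psmb8 to Psmb5 was 1.17 in vehicle and 1.07 in DFO HSC-like cells, 1.12 and 1.00 in neutrophil-monocyte-like cells, and 0.617 and 0.677 in megakaryocyte-like cells. The ratio of Psmb9 to Psmb6 was 0.431 and 0.416 in HSC-like cells, 0.362 and 0.354 in neutrophil-monocyte-like cells, and 0.201 and 0.226 in megakaryocyte-like cells. Psmb10, the third inducible subunit, varied less among the named clusters. Its ratio to Psmb7 was 1.17 and 1.24 in HSC-like cells, 1.27 and 1.25 in neutrophil-monocyte-like cells, and 1.05 and 1.11 in megakaryocyte-like cells. In the shallow cluster 6 the ratio of Psmb8 to Psmb5 was 1.82 in vehicle and 1.55 in DFO, above HSC-like cells. The ratio of Psmb9 to Psmb6 was 0.438 and 0.426 in cluster 6 and 0.429 and 0.398 in cluster 7. None of the 14 constitutive core subunits differed by 0.5 between HSC-like and committed cells. Of all genes, 13.8% in vehicle and 10.9% in DFO were higher by that size, and 8.94% and 6.55% lower. The median of the 14 subunits was -0.11 in vehicle and -0.12 in DFO. In whole libraries, DFO against vehicle gave Psmb8 to Psmb5 ratios of 0.881 and 0.904, Psmb9 to Psmb6 ratios of 0.326 and 0.317, and Psmb10 to Psmb7 ratios of 1.16 and 1.11.

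Across cells, H2-K1 had the highest correlation with Ly6a of the 8 genes. Pearson correlations of ln(1 + molecules), over 8357 vehicle and 9419 DFO cells thinned to 10000 molecules, were 0.19 in vehicle and 0.16 in DFO for H2-K1. The cells share a library, a culture and the fixed depth, and no p is given. B2m followed with 0.086 and 0.11, H2-D1 with 0.083 and 0.077, and Tapbp with 0.057 and 0.071. Tap1, Tap2, Psmb8 and Psmb9 lay between -0.029 and 0.031. H2-K1 also had the most molecules of the 8 genes, a mean of 10.9 per thinned vehicle cell against 0.53 for Tapbp. The part of molecule number in this ranking was not tested. A correlation of 0.1 or more was reached by 1 of 8 genes in vehicle and 2 of 8 in DFO, where 3.62% and 3.03% of all 8886 genes reached it; none of the 8 was at -0.1 or below, where 2.42% and 2.09% of genes were. Genes with a higher correlation with Ly6a than H2-K1 numbered 67 in vehicle and 99 in DFO, led by S100a4 (0.42 and 0.41) and Hlf (0.40 and 0.36).

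Levels of the class I chains were also higher in cells grouped by more Ly6a molecules. H2-K1 was at 1026, 1183, 1258 and 1376 CPM in vehicle cells with 0, 1 to 2, 3 to 5 and 6 or more Ly6a molecules, and at 1123, 1223, 1306 and 1393 CPM in DFO cells. B2m was at 434, 461, 469 and 541 CPM in vehicle and 422, 438, 468 and 537 CPM in DFO. H2-D1 was at 356, 386, 395 and 434 CPM in vehicle and 351, 375, 381 and 418 CPM in DFO. Each of the 3 genes was higher at every step in both libraries. Psmb8 had its lowest level in the top group, 312 CPM in vehicle and 289.9 CPM in DFO, against 351 and 321 CPM in cells with no Ly6a molecule. Tap2 was also lowest there, at 58.9 and 67.5 CPM against 71.5 and 74.5 CPM.

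From no Ly6a molecule to 6 or more, the log2 difference was 0.42 and 0.31 for H2-K1, 0.32 and 0.35 for B2m, 0.28 and 0.25 for H2-D1, and 0.57 and 0.39 for Tapbp. It was -0.28 and -0.14 for Tap2, -0.17 and -0.15 for Psmb8, -0.066 and -0.22 for Tap1, and 0.15 and 0.080 for Psmb9. Only Tapbp in vehicle passed 0.5, 1 of 8 genes, where 13.8% of 9142 genes passed upward; in DFO 0 of 8 did, where 10.9% of 9069 genes passed. None of the 8 was lower by 0.5, where 5.87% and 3.37% of genes were. The make-up of the groups changed with Ly6a: HSC-like cells were 10.9% of vehicle cells with no Ly6a molecule and 62.2% of those with 6 or more, and 8.93% and 57.1% in DFO. Megakaryocyte-like cells were 28.8% of vehicle cells with no Ly6a molecule and 0 of 336 with 6 or more, which allows a share of up to 0.893%. After thinning, a Ly6a molecule was found in 4.29% of vehicle and 6.33% of DFO megakaryocyte-like cells, against 60.2% and 69.7% of HSC-like cells.

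**Figure D3:**
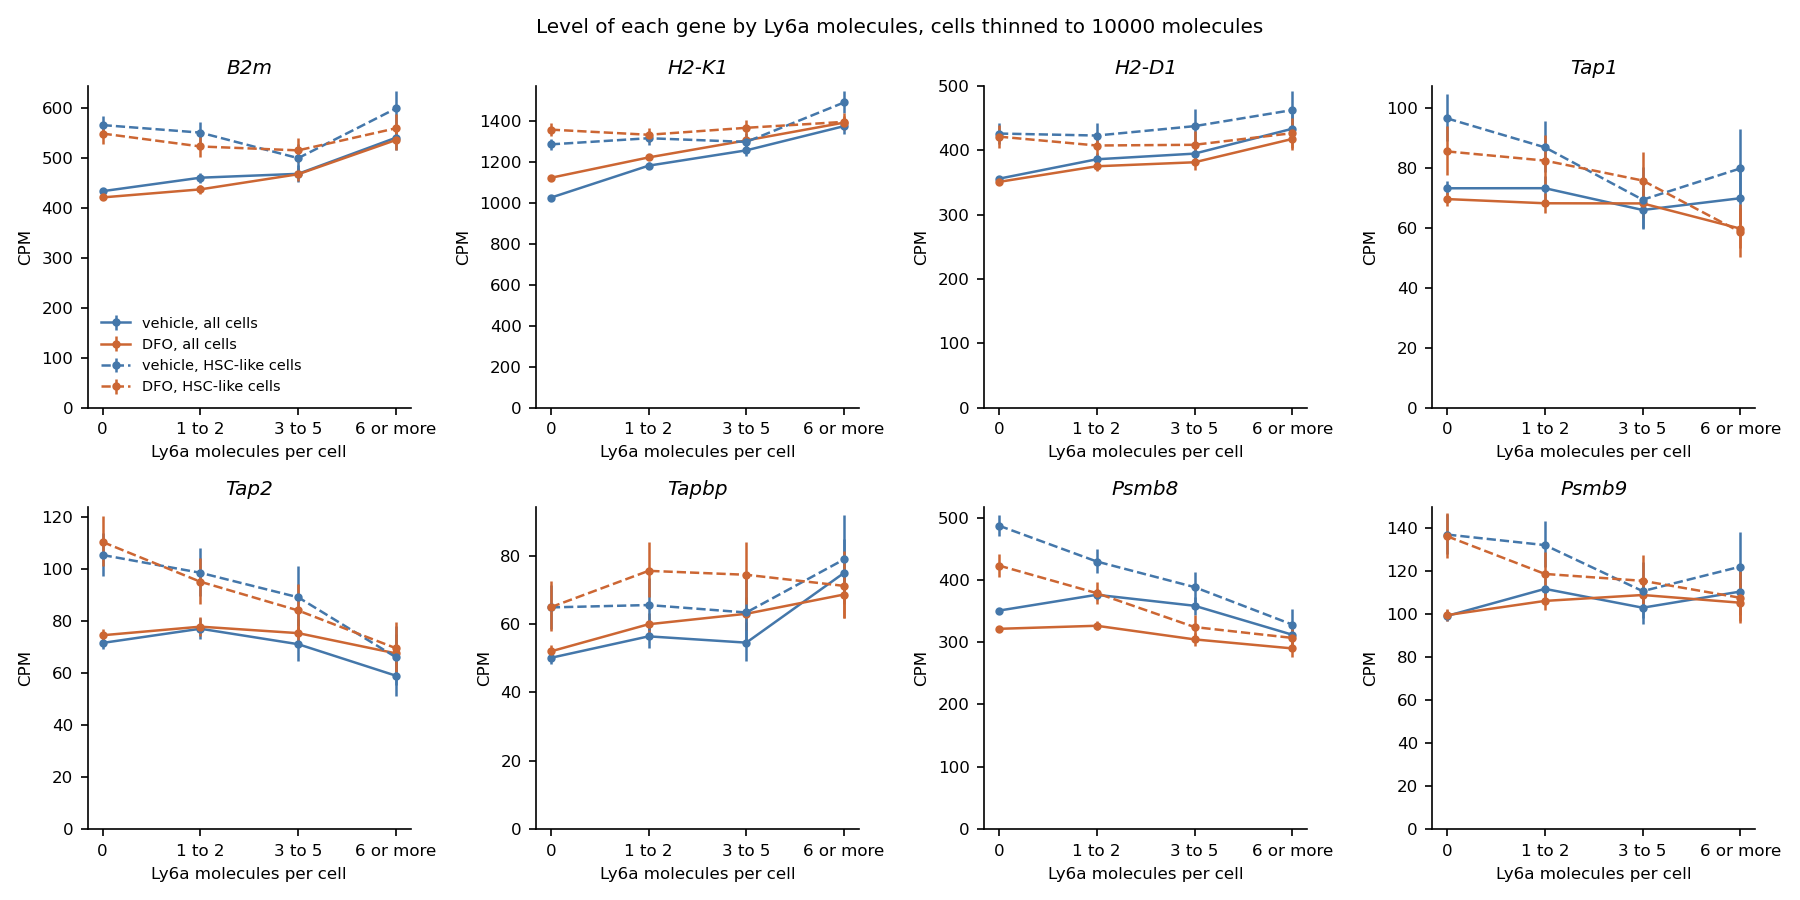
Level of each gene in CPM (y axis, from 0) by the number of Ly6a molecules in a cell (x axis), for cells thinned to 10000 molecules, in all cells (solid) and HSC-like cells (dashed), with vehicle in blue, DFO in orange and exact 95% Poisson intervals. The class I chains climb with Ly6a over all cells, from 1026 to 1376 CPM for vehicle H2-K1, while Psmb8 and Tap2 drop with Ly6a within HSC-like cells.

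Within the HSC-like cluster the correlations with Ly6a were near 0 for the class I chains and below 0 for Psmb8, Tap2, Tap1 and Psmb9. H2-K1 correlated with Ly6a at 0.065 in vehicle and 0.030 in DFO, and B2m at 0.0041 and 0.0091. Psmb8 correlated at -0.24 and -0.20, over 1551 and 1599 cells, Tap2 at -0.12 and -0.14, Tap1 at -0.086 and -0.11, and Psmb9 at -0.079 and -0.087. Correlations of -0.1 or less were found for 2 of 8 genes in vehicle and 3 of 8 in DFO, where 2.48% and 2.27% of all genes had them; none of the 8 reached 0.1, where 3.44% and 3.15% of genes did. For Psmb8, 99.7% of all genes in vehicle and 99.6% in DFO had a correlation at least as high. Psmb8 was at 487, 429, 388 and 328 CPM in vehicle HSC-like cells with 0, 1 to 2, 3 to 5 and 6 or more Ly6a molecules, and at 423, 379, 324 and 307 CPM in DFO. Tap2 was at 105.3, 98.5, 89.1 and 66.0 CPM in vehicle and 110.3, 95.0, 84.0 and 69.5 CPM in DFO. Both genes were lower at every step in both libraries. H2-K1 stayed between 1287 and 1317 CPM in the first 3 vehicle groups and was at 1492 CPM in the top group, of 209 cells. In DFO it lay between 1334 and 1397 CPM in all 4 groups. The share of cells called G1 was 46.4% in that top vehicle group and 28.6% in vehicle HSC-like cells with no Ly6a molecule; its part in the levels was not tested.

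The correlations were also computed in the other clusters. Over the committed cells together, H2-K1 correlated with Ly6a at 0.16 in vehicle and 0.12 in DFO, and Psmb8 at 0.12 and 0.073. Within the megakaryocyte-like cluster alone H2-K1 was at 0.072 and 0.078 and Psmb8 at -0.0031 and -0.0042, and within the neutrophil-monocyte-like cluster H2-K1 was at 0.074 and 0.012 and Psmb8 at -0.13 and -0.078. In cluster 0 the values were 0.089 and 0.12 for H2-K1 and -0.16 and -0.092 for Psmb8, and in cluster 3 they were 0.12 and 0.11 for H2-K1 and -0.0061 and -0.069 for Psmb8. In cluster 7 Psmb8 was above 0, at 0.115 in vehicle and 0.046 in DFO. The differences between clusters were not tested.

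The 8 genes also varied together, weakly. All 28 pairs had a correlation above 0 in both libraries, with a median of 0.10 in vehicle and 0.076 in DFO. The share of other gene pairs above 0 was not computed, so this is not shown to be particular to the 8 genes. The highest was that of H2-K1 with H2-D1, 0.26 in vehicle and 0.23 in DFO, and B2m with H2-K1 came next at 0.24 and 0.22. H2-K1, B2m and H2-D1 also had the most molecules of the 8 genes, and the part of this in the ranking was not tested. The heavy chain genes are near-identical in parts, and the counting of reads that fit both is not stated in the labels, so their separate levels are uncertain. Outside the 8 genes, those most like their summed ln(1 + molecules) over both libraries were Plac8 (mean r 0.32), Stmn1 (0.31), Itm2b (0.31), H2afy (0.31), H3f3a (0.30), Eef1a1 (0.28), Srgn (0.28), Rpl3 (0.28), H2afv (0.27) and Myl12b (0.27). Ly6a came at rank 228 of 8878 genes, with a mean r of 0.11.

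Within clusters, H2-K1 was again higher in DFO, and Psmb8 lower outside the megakaryocyte-like cells. H2-K1 was higher in DFO in 8 of 8 clusters, by 0.051 to 0.23 on the log2 scale. The median of all genes was also above 0 in 8 of 8 clusters, by 0.0060 to 0.037. Psmb8 was lower in 7 of 8 clusters, and its differences ran from -0.27 to 0.037. Intervals of the libraries overlapped for H2-K1 in cluster 6, and for Psmb8 in cluster 7 and the megakaryocyte-like cluster. The share of all genes with the same direction in as many clusters, or with intervals apart, was not computed. In HSC-like cells Psmb8 went from 424 CPM (418 to 431) to 355 CPM (349 to 362), a log2 difference of -0.26 and the only 1 of the 8 genes there past 0.25 downward, where 2.13% of 9111 genes were; none passed upward, where 2.48% of genes did. In neutrophil-monocyte-like cells it went from 442 to 366 CPM, -0.27, where 2.47% of genes were past 0.25 downward and 2.17% upward. The median of the 8 genes was -0.051 in HSC-like and -0.024 in neutrophil-monocyte-like cells.

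In the megakaryocyte-like cluster all 8 genes were higher in DFO, with a median of 0.094 against 0.031 for all genes there. Intervals of the libraries overlapped for Tapbp and Psmb8. The share of all genes there that were higher in DFO, or had intervals apart, was not computed. H2-K1 differed by 0.23, Psmb9 by 0.17, Tap2 by 0.12 and Tap1 by 0.11. None of the 8 passed 0.25, where 4.44% of genes passed upward and 3.05% downward. The summed level of the 14 measured megakaryocyte markers in those cells was 5233 CPM in vehicle and 3105 CPM in DFO; its part in these differences was not tested. The megakaryocyte-like cluster was 19.7% of vehicle and 13.8% of DFO cells. With clusters given equal shares in both libraries, the median difference of the 8 genes over whole libraries was -0.015 instead of 0.025, and that of H2-K1 stayed above 0, as it did in all 10 alternatives (0.10 to 0.17).

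**Figure D4:**
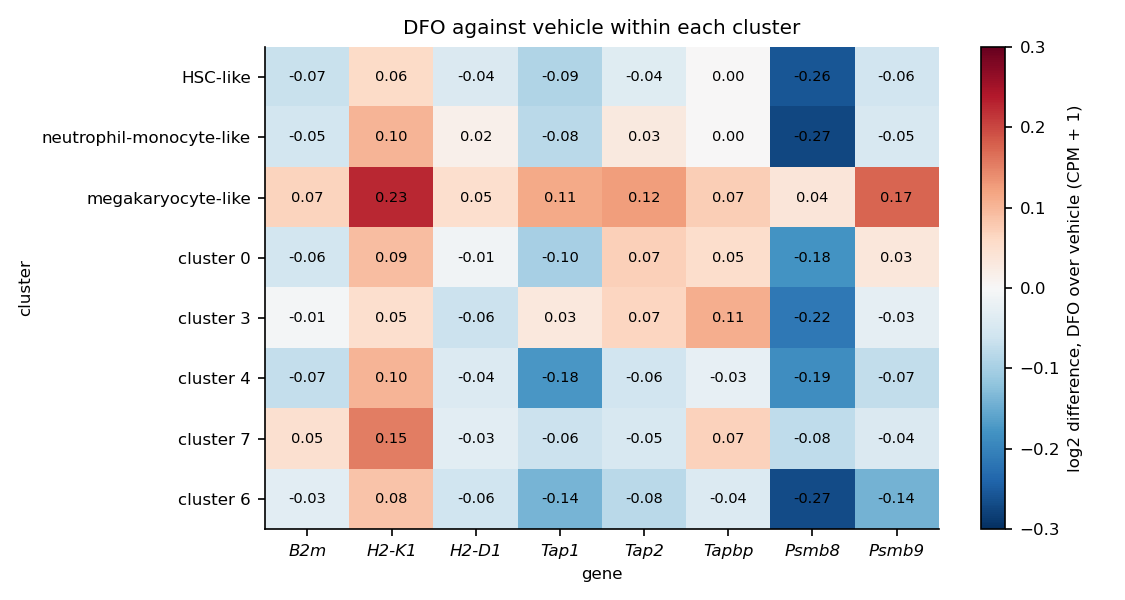
Log2 difference of DFO from vehicle, from CPM + 1, for each gene (columns) in each cluster (rows); red is higher and blue lower in DFO, and the number stands in each cell. H2-K1 is above 0 in all 8 clusters, Psmb8 is below 0 in 7, and the megakaryocyte-like row is above 0 for all 8 genes.

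Other class I genes did not form 1 pattern. Of 20 listed, 12 were measured and 7 reached the minimum mean of 5 CPM; their median difference of HSC-like from committed cells was 0.77 in vehicle and 0.58 in DFO, with 4 of 7 past 0.5 upward in both, where 13.8% and 10.9% of all genes were. Fcgrt, which encodes the neonatal Fc receptor, differed most, by 1.99 and 1.64, and H2-M3, which presents formylated peptides, by 0.89 and 0.63. H2-Q7 went the other way, at 134.5 CPM in HSC-like and 175.2 CPM in committed vehicle cells (-0.38) and -0.45 in DFO. H2-Q6 and H2-Q7 are near-identical, so their values are uncertain. In DFO against vehicle, H2-T22 differed by 0.18, H2-Q6 by 0.12, H2-Q7 by 0.11 and H2-T23 by -0.16. Hfe, a class I-like gene that regulates iron uptake and binds B2m protein, was at 1.67 (vehicle) and 1.84 CPM (DFO), with overlapping intervals of 1.51 to 1.83 and 1.68 to 2.00 CPM.

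The other peptide loading and trimming genes had a median near 0. Among the 16 of them at that minimum, the median difference of HSC-like from committed cells was -0.048 in vehicle and -0.039 in DFO. Erap1, which trims peptides in the endoplasmic reticulum, was higher by 0.73 and 0.42, and Psme1, a subunit of the interferon-inducible proteasome activator, by 0.47 and 0.37. Psme3 was lower, at -0.74 and -0.62, as was the chaperone gene Hspa5, at -0.60 and -0.54. The chaperones Calr and Pdia3 of the loading complex differed by -0.18 and -0.014 in vehicle and by -0.24 and -0.013 in DFO. In DFO against vehicle, none of the 16 passed 0.25, where 1.4% of all genes passed upward and 2.58% downward. Psme3 differed by 0.17, Erap1 by 0.11, Psme2 by -0.13 and Nrd1 by -0.055.

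Of 14 class I regulators at that level, 3 were higher by 0.5 or more in HSC-like than in committed cells in both libraries and none was lower, where 13.8% and 10.9% of all genes were higher and 8.94% and 6.55% lower. They were Irf1 (1.34 in vehicle and 1.15 in DFO), Rfx5 (0.78 and 0.68) and Irf2 (0.62 and 0.67). Nlrc5, below the minimum at 4.79 and 5.05 CPM in the libraries, differed by 0.43 and 0.30. Rfxank was the only 1 of the 14 past 0.25 between libraries, where 1.4% of all genes were higher and 2.58% lower by that size. It differed by -0.29, from 7.39 to 5.85 CPM, near the minimum of 5 CPM. Eed, a polycomb subunit, had the highest difference of the 14, 0.19. Of 7 interferon receptor and kinase genes, 5 were higher by 0.5 or more in HSC-like cells in both libraries, beside 13.8% and 10.9% of all genes, with Ifngr2 at 1.39 and 1.05 and Ifngr1 at 1.18 and 1.06.

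Of 23 interferon response genes, 7 were higher and 2 lower by 0.5 or more in HSC-like cells in each library. Of all genes, 13.8% in vehicle and 10.9% in DFO were higher by that size, and 8.94% and 6.55% lower. Oasl2 (1.66 and 1.32) and Ddx58 (1.37 and 1.31) differed most upward, and Usp18 (-0.78 in both) and Ifi47 (-0.77 and -0.70) most downward. None of the 23 passed 0.25 between DFO and vehicle, where 1.4% of all genes passed upward and 2.58% downward. The median of the 23 was 0.013. Socs1, a feedback inhibitor of interferon signalling, had the highest difference, 0.23, and Ifih1 the lowest, -0.085. Among 4 class II pathway genes at the same minimum, H2-Oa was higher in HSC-like cells by 1.49 and 1.13 and H2-DMa by 0.79 and 0.64. H2-Ab1 differed by -0.41 between libraries, from 34.4 CPM in vehicle to 25.6 CPM in DFO, while the class I chain genes differed by -0.020 to 0.14.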

How the data were processed

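The authors deposited, for each library, a gene by cell table of natural log values. The values equal ln(1 + 27408 × molecules / total molecules of the cell), and whole molecules were recovered for 100% of nonzero values within 0.05. Build mm10 and the tools FastQC 0.11.9, Trim Galore 0.6.5 and Cell Ranger 3.0.2 are named in the submitters' processing notes, which give no role for each; the cell filter is unstated in the sources used. All deposited cells were used. With 1 library per group, no test was run.

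Molecules were summed, scaled to CPM and compared as log2 of CPM + 1, with exact 95% Poisson intervals that leave out variation between cells, cultures and preparations. Genes entered counts from a mean of 5 CPM. Clusters used Python 3.11.15, scanpy 1.11.5 and leidenalg 0.10.2: 2000 variable genes, 30 components, 15 neighbours, resolution 0.5, seed 0. A name needed 3 detected markers, 1 of them among the top 10 genes, and more markers there than any other type; that ties stay unnamed was set after the clusters were seen. Ly6a is among the HSC markers that gave the name, so its level in HSC-like cells is no result. Scrublet called 0.0345% of vehicle and 0.0203% of DFO cells and so had not worked. As an alternative, 820 and 925 likely doublets were left out. They were the top 8% of the same Scrublet scores in each library and cells with transcripts of both sexes. This alternative is therefore no independent check for doublets. The genes, lists, rules and tests were chosen with earlier results of these data known. Named genes are the 8 genes and Ly6a, the 10 most like them, fixed genes, and up to 2 genes at each end of each list; S100a4 and Hlf, and the finer clusters, were named after their values were seen. Alternatives changed the pseudocount, scale, cell filter, cluster shares, thinning, clustering and phase. Summation was tested on simulated data.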

Additional observations from a re-analysis of the deposited data

Results flagged for a closer look

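B2m was lower in DFO than in vehicle in HSC-like cells, with a log2 difference of -0.0678, and higher in megakaryocyte-like cells, with 0.0674. The directions are opposite in the pair of clusters, each from 1 library per group. The difference between the clusters was not tested.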

How the results depend on the processing

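With 1 library per group, precision is limited by counting error alone as far as it can be measured, and variation between cultures cannot be. No paired analysis was possible because each group has 1 library. For DFO against vehicle, the median of the 8 genes was 0.0249. It was 0.00585 when scaled by the median of gene ratios, and below 0 as a mean of per-cell CPM (-0.00529), with equal cluster shares (-0.0149) and in cells thinned to 10000 molecules (-0.00714); the cause was not tested. The genes past 0.25 numbered 34 to 212 upward and 95 to 419 downward over 12 alternatives, against 124 and 229. H2-K1 stayed above 0 and Psmb8 below 0 (-0.185 to -0.101) in all 10 alternatives for single genes.

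For HSC-like against committed cells the median was 0.578 in vehicle and 0.416 in DFO and above 0 in all 12 alternatives. The vehicle and DFO values were 0.208 and 0.128 at resolution 1, where erythroid-like and mast or basophil-like clusters also count as committed, 0.342 and 0.283 with 1000 variable genes, 0.427 and 0.108 for ranges of a marker score, 0.797 and 0.564 against megakaryocyte-like cells, and 0.249 and 0.22 against neutrophil-monocyte-like cells, an alternative chosen after seeing the data. The marker score ranges are not cell types, with 2131 vehicle and 2789 DFO cells within 2 molecules of the bound. The vehicle value was 0.536 with all variable genes and 0.351 in G1 cells, and the DFO value 0.367 in male cells. With 1000 variable genes an erythroid-like cluster also counts as committed. With all variable genes the committed cells were megakaryocyte-like and erythroid-like only, so the committed class differs there too. Genes of the 8 past 0.5 numbered 7 in vehicle and 2 in DFO, and 0 to 7 and 0 to 6 over the alternatives. Psmb8 was below 0 against neutrophil-monocyte-like cells in vehicle (-0.0575) and DFO (-0.0413), and in DFO at resolution 1 (-0.084); the other 7 genes were above 0 in all 12 alternatives in both libraries. Resolution 0.25 was not run because no cluster was named HSC-like.

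The median correlation with Ly6a was 0.0438 in vehicle and 0.0513 in DFO. It was 0.0803 and 0.0843 in unthinned cells, -0.0373 and -0.0449 within HSC-like cells, and 0.0121 and 0.00197 in G1 cells; in DFO it was 0.0277 at 5000 molecules, and in vehicle 0.0156 in male cells. The log2 ratio of Psmb8 to Psmb5 was -0.0514 in vehicle and -0.126 in DFO when thinned, and -0.0803 and -0.162 with equal cluster shares. That of Psmb9 to Psmb6 was -1.54 and -1.57 when thinned, and -1.59 and -1.6 with equal shares. That of Psmb10 to Psmb7 was 0.245 in DFO when thinned and 0.181 in vehicle with equal shares.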
